A study of Mus musculus with 21 samples.

Results

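Immediate early genes are transcribed within minutes of a stimulus, from preformed transcription factors and without new protein synthesis. Growth factors, cytokines, injury and stress reach them through MAP kinase cascades and through factors such as SRF with its ternary complex partners and CREB, and their RNAs are short-lived. In the gut they are known as part of the response of epithelium and stroma to mitogens and damage, and they are also known to be induced while tissue is being removed and processed. The genes described here are 10: Fos, Fosb, Jun, Junb and Atf3, whose proteins are basic leucine zipper factors of the AP-1 and ATF families, Egr1 and Egr2, which encode zinc finger factors, Nr4a1, which encodes an orphan nuclear receptor, Dusp1, which encodes a phosphatase that switches MAP kinases off, and Ier2, which encodes a small nuclear protein. They were chosen by symbol from a list of stimulus-induced early genes. All 10 were found among the 24062 genes of the count table, and all 10 passed the filter on low counts that left 15936 genes for testing.

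RNA of mouse normal colon and colon tumours was sequenced in 21 libraries, 3 in each of 7 groups, all from C57BL/6 mice. Wild-type mice gave male normal colon, male tumours, female normal colon and female tumours. Mice carrying App NL-G-F, a knock-in of disease mutations into the gene of the amyloid precursor protein, gave male normal colon, male tumours and female normal colon. The 21 libraries include no knock-in female tumours. Tumours arose under AOM/DSS, the carcinogen azoxymethane combined with dextran sulfate sodium, an agent that damages the gut epithelium. The labels list the normal libraries as not treated, while the text of the series speaks of normal tissue beside tumours or of normal colon where tumours had not formed. Age is not given in the labels, and they do not say whether each library came from a separate animal, so p-values measure the spread between these libraries. The knock-in allele is present in every cell of the mouse, and the counts come from bulk tissue, in which fewer cells of a type and less RNA per cell cannot be told apart.

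Library totals ran from 3414123 counts in wild-type male tumour replicate 2 to 26174008 in wild-type female normal replicate 1. No pair of replicates agreed within counting noise, the smallest chi-square per degree of freedom being 6.60. Levels are given as CPM, counts relative to the TMM-scaled library size. The ribosomal RNA precursor Rn45s took 2.84% to 14.1% of the counts, least in the 3 wild-type female normal libraries. The 7 epithelial marker genes fixed for this check (Epcam, Cdh1, Krt8, Krt18, Krt19, Vil1 and Cdx2) summed to between 5440 and 10011 CPM and none was at 0 in any library. The 8 smooth muscle markers summed to between 2014 and 9911 CPM in the normal libraries and to between 206 and 1054 CPM in the tumours. Libraries numbered 152 to 154 in the labels (wild-type female tumour replicates 2 and 3, knock-in male tumour replicate 3) stand outside the run of numbers of the other libraries.

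The levels of the genes covered a wide range. Per kilobase of exon, from the exon lengths of GENCODE M21, Jun was the most abundant with a median of 69.0 CPM per kb over the 21 libraries, followed by Fos at 45.5, Junb at 43.2 and Ier2 at 32.4 CPM per kb. Atf3 and Dusp1 had medians of 11.8 and 11.1 CPM per kb, Egr1 and Nr4a1 of 5.78 and 5.22, Fosb of 1.75 and Egr2 of 0.364 CPM per kb. Neighbours in this order overlapped in their ranges over the libraries, with Jun reaching from 29.0 to 116 CPM per kb and Fos up to 111. Egr2 rested on 4 to 28 counts per library and has the largest counting error of the genes, while the spread between replicates was wider for Fosb, Nr4a1, Egr1, Atf3 and, by little, Fos. Jun, Junb and Dusp1 are overlapped in GENCODE M21 by genes on the other strand, Junos, Prdx2 and Ergic1, and because the sources used here do not give the strand setting of the counting, reads from the shared stretches cannot be told apart.

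**Figure D1:**
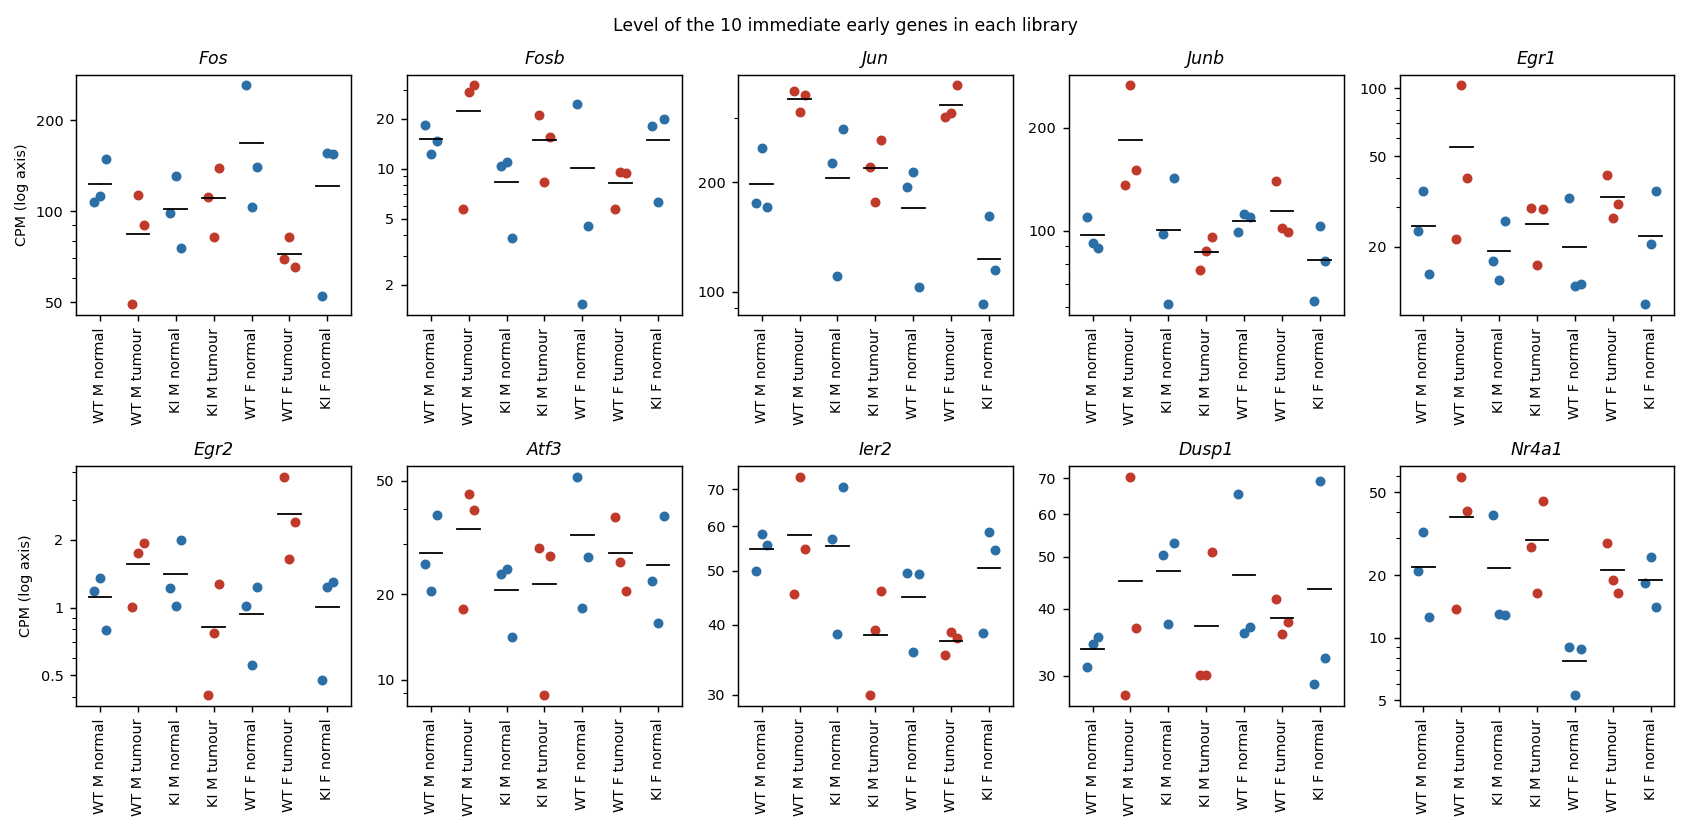
Level of each of the 10 genes in each library, in CPM on a log axis, with 3 points and a bar at the mean for each group (WT wild-type, KI knock-in, M male, F female, blue normal colon, red tumour). The groups overlap for most genes, while Jun lies above 300 CPM in all 6 wild-type tumour libraries and at 280 CPM or lower in the other 15.

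Variation between replicates was large. The SD of log2 CPM within groups was 1.06 for Fosb, 0.71 for Nr4a1, 0.70 for Egr1, 0.66 for Atf3, 0.54 for Fos and 0.53 for Egr2, against a median of 0.26 over all tested genes. Ier2 had the smallest at 0.29, and all 10 genes lay above that median. In all 2.45% of tested genes had a larger SD within groups than Fosb, and 43.4% had a larger one than Ier2. Differences between the 7 groups took a median of 43.1% of a gene's total sum of squares for the 10 genes and 67.1% over all tested genes. For Dusp1 the share was 14.2% and for Atf3 18.0%, whereas for Jun it was 68.2%.

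In 4 of the 7 groups 1 library was the highest or the lowest of the 3 for at least 7 of the 10 genes. How often these libraries were the highest or the lowest over all tested genes was not computed, so the counts have no background beside them. In wild-type male tumours replicate 1 was the lowest of the 3 for 9 of the 10 genes and replicate 2 the highest for 7. Replicate 1 was the highest for 7 genes in wild-type female normal colon and replicate 2 the lowest for 8. In knock-in male tumours replicate 3 was the highest for 7 genes and replicate 2 the lowest for 7, and in knock-in female normal colon replicate 1 was the lowest for 7. The other 3 groups were divided. Knock-in male normal replicate 3 was the highest for 6 genes and the lowest for 4, wild-type female tumour replicate 1 the highest for 6 and the lowest for 3, and in wild-type male normal colon no library was the highest or the lowest for more than 5. Wild-type male tumour replicate 2 is also the smallest library, knock-in male tumour replicate 3 carries number 154, and wild-type female normal replicate 1 is the largest library. Heat shock and handling genes (10 genes, among them Hspa1a, Hspa1b and Dnajb1) were summed as well. Within groups their sums ranked the libraries in another order than the mean log2 CPM of the 10 early genes, except in wild-type female tumours. They came to 2307, 1794 and 2091 CPM in wild-type male tumour replicates 1, 2 and 3. In wild-type female normal replicates 1, 2 and 3 they came to 2553, 3284 and 1517 CPM. In wild-type female tumour replicates 1, 2 and 3 they came to 5227, 2232 and 2436 CPM. There replicate 1 was the highest both in these sums and in the mean of the early genes. The part of library size, library number and handling in these deviations was not tested.

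**Figure D2:**
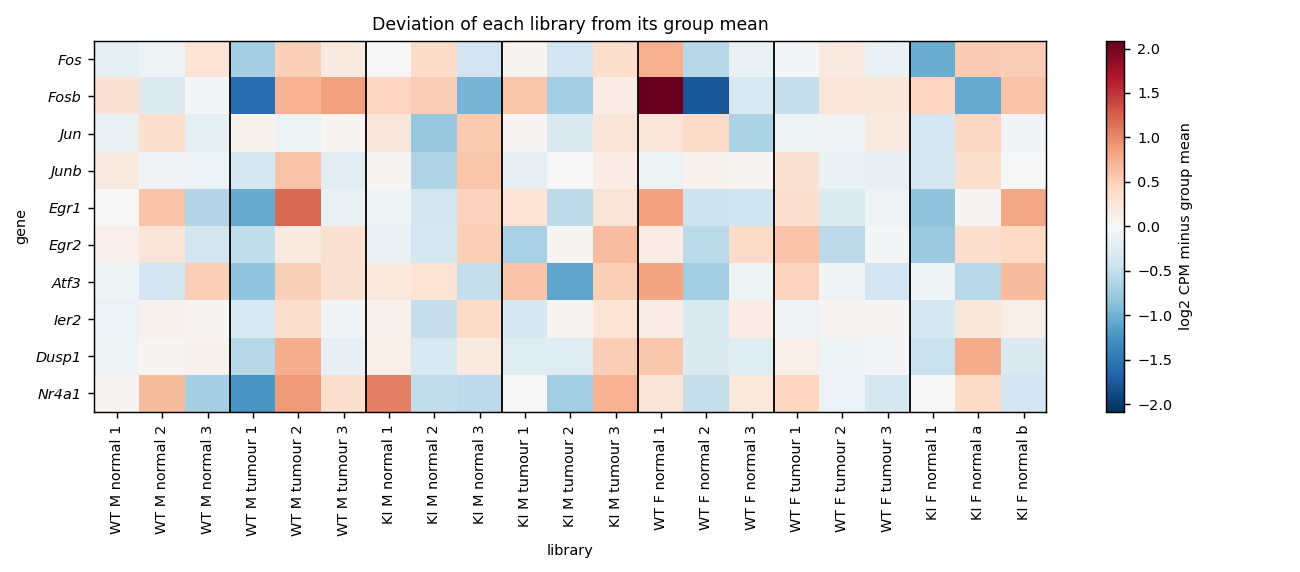
Log2 CPM of each gene in each library minus the mean of its group, with red for higher and blue for lower (WT wild-type, KI knock-in, M male, F female). Some columns are nearly of 1 colour and others mixed; an example of the former is wild-type male tumour replicate 1, lowest of its group for 9 of 10 genes.

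The promoters of 6 of the genes are shown because their RNAs carry the comparisons below or, for Fosb, vary most between replicates. Each sequence is the 200 bases before the annotated start in RefSeq, build GRCm38.p6, 5′ to 3′ on the strand of the gene. Capitals mark TGACG on either strand, the core of cAMP response elements, TGACATCA in Jun, and a CArG box, the site bound by SRF, in Egr2.
Fos: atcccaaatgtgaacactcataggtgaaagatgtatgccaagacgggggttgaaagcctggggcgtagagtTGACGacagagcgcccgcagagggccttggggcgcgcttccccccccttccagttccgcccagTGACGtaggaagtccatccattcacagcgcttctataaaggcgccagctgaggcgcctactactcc
Fosb: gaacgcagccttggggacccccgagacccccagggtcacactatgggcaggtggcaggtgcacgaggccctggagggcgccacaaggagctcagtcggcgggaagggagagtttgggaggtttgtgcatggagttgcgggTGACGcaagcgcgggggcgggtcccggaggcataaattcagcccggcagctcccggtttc
Jun: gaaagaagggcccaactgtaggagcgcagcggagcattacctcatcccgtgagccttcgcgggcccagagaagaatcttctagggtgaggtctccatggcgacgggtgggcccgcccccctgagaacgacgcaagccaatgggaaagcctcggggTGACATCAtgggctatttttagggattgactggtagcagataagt
Junb: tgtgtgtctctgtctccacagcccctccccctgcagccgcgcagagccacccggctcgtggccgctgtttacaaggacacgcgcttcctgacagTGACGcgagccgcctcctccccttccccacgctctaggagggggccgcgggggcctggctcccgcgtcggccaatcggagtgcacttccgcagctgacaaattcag
Egr2: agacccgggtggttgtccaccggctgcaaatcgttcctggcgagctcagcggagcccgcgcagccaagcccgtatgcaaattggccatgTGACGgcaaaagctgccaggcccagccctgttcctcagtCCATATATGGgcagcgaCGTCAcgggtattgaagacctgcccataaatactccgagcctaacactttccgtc
Nr4a1: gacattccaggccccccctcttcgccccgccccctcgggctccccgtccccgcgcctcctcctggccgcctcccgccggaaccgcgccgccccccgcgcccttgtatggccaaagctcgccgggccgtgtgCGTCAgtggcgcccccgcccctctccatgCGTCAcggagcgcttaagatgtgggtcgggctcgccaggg

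These windows lie at chr12:85473690-85473889 on the plus strand for Fos, chr7:19310046-19310245 on the minus strand for Fosb, chr4:95052223-95052422 on the minus strand for Jun, chr8:84978749-84978948 on the minus strand for Junb, chr10:67537669-67537868 on the plus strand for Egr2 and chr15:101266646-101266845 on the plus strand for Nr4a1. RefSeq windows were searched for 8 of the 10 genes. Ier2 had no sequence in the set used, and Egr1 was set aside before the search. TGACG on either strand was found in 7 of the 8 (Fos, Fosb, Junb, Egr2, Atf3, Dusp1 and Nr4a1), beside 15.7% of all 32851 promoter windows of the same length. In Fos it begins 66 and 129 bases before the start, with the letters TATAAA at 33 bases. Jun holds TGACATCA at 45 bases, letters found in 2.66% of all windows. The whole palindrome TGACGTCA, which contains TGACG, was found in Dusp1 (1.47% of all windows), the CArG box in Egr2 at 72 bases (1.18%), and the AP-1 site TGANTCA in none of the 8 (5.48%). Of the 5 annotated starts of Egr2, the window with the most CArG and then TGACG matches was taken. Its matches are therefore not comparable with these shares, and the 7 of 8 genes with TGACG include Egr2. The matches describe letters and say nothing of binding.

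Jun and Fos, whose proteins can pair as the AP-1 dimer, moved in opposite directions in tumours of wild-type females. Fos was at 261, 104 and 140 CPM in wild-type female normal replicates 1, 2 and 3 and at 69.8, 82.1 and 65.2 CPM in the tumours. All 3 tumours lay below all 3 normal libraries. Jun was at 194, 213 and 103 CPM in the normal libraries and at 303, 310 and 369 CPM in the tumours, again without overlap. By the quasi-likelihood test of edgeR, adjusted by Benjamini-Hochberg over 15936 genes, Fos fell by 1.22 on the log2 scale (SE 0.41, adjusted p 0.0208) and Jun rose by 0.94 (SE 0.30, adjusted p 0.0162 by edgeR). Without normal replicate 1 the log2 fold change of Fos was -0.75 with an edgeR adjusted p of 0.152, and without tumour replicate 1 or 3 the adjusted p was 0.0597 or 0.0669. Jun had an edgeR adjusted p of 0.0791 without normal replicate 3 and of 0.0556 without tumour replicate 3, and one of 0.109 with a term for the late-numbered libraries (152 to 154).

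In the same tumours Nr4a1 and Egr2 rose. Nr4a1 was at 9.05, 5.30 and 8.83 CPM in wild-type female normal replicates 1, 2 and 3 and at 28.4, 18.95 and 16.4 CPM in the tumours, a rise by 1.44 on the log2 scale (SE 0.57, adjusted p 0.0471 by edgeR). Every tumour exceeded every normal library, but the call was lost in 12 of the 21 fits that left out a library, where the edgeR adjusted p reached 0.149 without tumour replicate 1. Egr2 was at 1.01, 0.557 and 1.24 CPM in normal colon and at 3.80, 1.64 and 2.39 CPM in the tumours, likewise without overlap, a rise by 1.45 on the log2 scale (SE 0.50, adjusted p 0.0211 by edgeR). Egr2 did not pass without normal replicate 1 or 2 or tumour replicate 1 (edgeR adjusted p 0.0555, 0.0798 and 0.113). With the term for late-numbered libraries neither passed, at edgeR adjusted p of 0.0520 for Egr2 and 0.123 for Nr4a1. Nr4a1 was also lost in edgeR with DESeq2 size factors (adjusted p 0.0504) and with no filter on low counts (0.0703). The remaining 6 genes did not pass, and their log2 fold changes ran from -0.39 for Fosb to 0.69 for Egr1. Without normal replicate 1 the value of Fosb was 1.47 (edgeR adjusted p 0.146). In all, 3 of the 10 genes rose, beside 25% of all tested genes, and 1 fell, beside 24%, which makes 4 of 10 beside 49.1% called in either direction. The groups were without overlap for the same number, 4 of 10, beside 58.4% of all genes. The median log2 fold change of the 10 genes was -0.07, and that of all tested genes 0.01. The 4 neutrophil markers summed to between 2.79 and 6.97 CPM in the normal libraries and to between 46.4 and 152 CPM in the tumours, with 1 of the 4 at 0 in normal replicate 3, and the 5 endothelial markers to between 67.6 and 97.1 and between 141 and 232 CPM. Rn45s took 2.84% to 3.18% of the counts in the normal libraries and 7.96% or more in the tumours. The part of these in the changes was not tested.

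In tumours of wild-type males Junb rose. It was at 110, 92.3 and 89.3 CPM in normal replicates 1, 2 and 3 and at 136, 265 and 150 CPM in the tumours. The tumours all exceeded the normal libraries, and the fitted rise was 0.91 on the log2 scale (SE 0.27, adjusted p 0.0156 by edgeR). The call rests on tumour replicate 2, without which the log2 fold change was 0.56 (edgeR adjusted p 0.112), and on normal replicate 3 (0.85 without it, edgeR adjusted p 0.0647). Jun was at 175, 248 and 172 CPM in normal colon and at 356, 313 and 347 CPM in the tumours, without overlap. Its log2 fold change of 0.77 (SE 0.30) had an edgeR adjusted p of 0.0558, and it passed at 0.0278 with the DESeq2 test, 0.0103 with the compared groups alone in the edgeR fit and 0.0394 with edgeR on library totals.

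Fos gave no such separation in males. It was at 107, 113 and 149 CPM in normal colon and at 49.4, 113 and 90.2 CPM in the tumours, with a log2 fold change of -0.56 and a 95% interval from -1.43 to 0.31. Egr1 had the largest fitted difference of the 10 genes and one of the widest spreads. Tumour replicates 1, 2 and 3 were at 21.5, 103 and 40.1 CPM and the normal libraries at 23.4, 35.3 and 15.2 CPM, so that the groups overlapped (log2 fold change 1.11, SE 0.54, edgeR adjusted p 0.124). Fosb in these tumours was at 5.69, 29.1 and 31.8 CPM, Nr4a1 at 13.7, 59.4 and 40.8 CPM, and both overlapped the normal libraries. With Junb alone, 1 of 10 genes passed, beside 35.7% of all tested genes (16.5% higher and 19.3% lower), and 2 of 10 were without overlap beside 52.4%. The median log2 fold change was 0.48 for the 10 genes and 0.01 for all tested genes, and 9 of the 10 were positive. The share of positive values over all tested genes was not counted, and tumour replicate 2 was the highest tumour for 7 of the 10 genes.

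**Figure D3:**
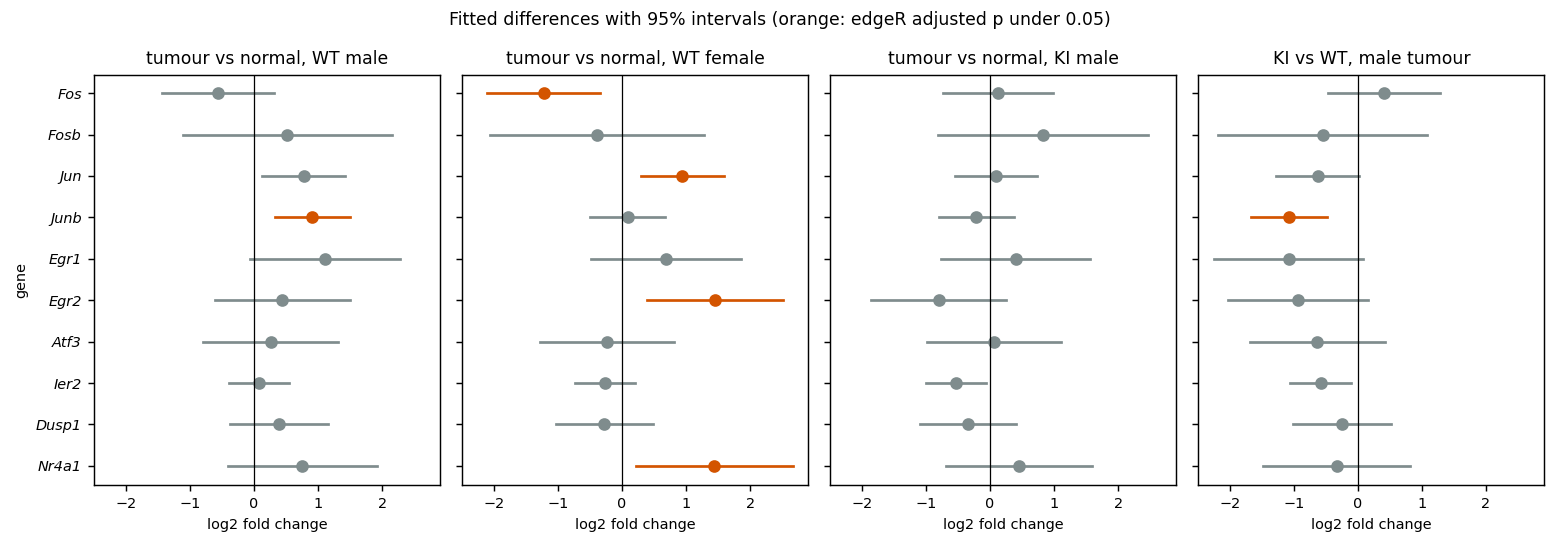
Fitted log2 fold change of each gene, as points, with 95% intervals from the standard error on 14 degrees of freedom, as lines, in 3 comparisons of tumour with normal colon and in knock-in against wild-type male tumours. Orange marks an edgeR adjusted p under 0.05. Intervals are not adjusted for the number of genes, so some grey ones exclude 0.

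In knock-in males none of the 10 genes passed between tumours and normal colon, beside 20.4% of all tested genes (10.4% higher and 9.97% lower). No gene of the 10 was without overlap, beside 33.6% of all genes. With edgeR 1 gene, Ier2, had an unadjusted p under 0.05, and DESeq2 called 0. Fos was at 98.6, 131 and 75.4 CPM in normal replicates 1, 2 and 3 and at 112, 82.1 and 139 CPM in the tumours, and Jun at 226, 110 and 280 against 220, 176 and 261 CPM. Both sets overlap. The 95% interval of the log2 fold change ran from -0.74 to 0.99 for Fos, from -0.55 to 0.74 for Jun and from -0.79 to 0.37 for Junb. Ier2 was at 57.0, 38.6 and 70.6 CPM in normal colon and at 29.9, 39.1 and 46.0 CPM in the tumours, and its fitted log2 difference was -0.53 (SE 0.22, adjusted p 0.0881 by edgeR). That value became 0.0192 without knock-in male normal replicate 2, the lowest of the normal libraries for Ier2.

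Knock-in and wild-type male tumours differed in Junb. The knock-in tumours, at 77.0, 87.3 and 96.1 CPM in replicates 1, 2 and 3, all lay below the wild-type tumours, whose lowest was 136 CPM. The log2 fold change was -1.08 (SE 0.27, adjusted p 0.0204 by edgeR), or 0.474 times the wild-type level. The edgeR adjusted p was 0.0854 without wild-type tumour replicate 2, where the log2 fold change was -0.72, 0.0532 without knock-in tumour replicate 1 and 0.0704 without knock-in tumour replicate 2. Jun was lower in all 3 knock-in tumours as well, at 176 to 261 CPM against 313 to 356 CPM, but did not pass (log2 fold change -0.63, SE 0.30, edgeR adjusted p 0.158). It passed with the compared groups alone in edgeR (adjusted p 0.0369). For Ier2 the log2 difference was -0.58 (SE 0.22, adjusted p 0.0780 by edgeR), passed at 0.0456 with DESeq2, and overlapped between the groups.

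Of the 10 genes, 1 thus passed in this comparison, beside 14.5% of all tested genes (9.3% higher and 5.23% lower), and 2 were without overlap beside 36.4%. Fitted changes were negative for 9 of 10, Fos being the exception at 0.41, and their median was -0.61 against 0.05 for all tested genes. Wild-type male tumours enter both this comparison and that with wild-type normal colon, so the negative values here and the positive ones there share 3 libraries, of which replicate 2 was the highest for 7 of the 10 genes. The wild-type male tumours also enter the comparison of wild-type female with wild-type male tumours. Fitted changes were negative for 9 of 10 genes in that comparison too, with a median of -0.44. The smooth muscle markers summed to between 926 and 1054 CPM in knock-in tumours and to between 235 and 809 CPM in wild-type ones. Their part in the difference was not tested. The difference between the genotypes in the tumour effect, tested as an interaction, had a log2 value of -1.12 for Junb (SE 0.39, adjusted p 0.0973 by edgeR). It passed with DESeq2 (adjusted p 0.0418) and, in edgeR, without knock-in male normal replicate 2 (adjusted p 0.0179). With edgeR 0 of the 10 genes passed this interaction and 1 had an unadjusted p under 0.05, DESeq2 called 1, and 1.51% of all tested genes were called by edgeR.

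The balance of Jun and Fos within a library does not depend on the scaling of the libraries and was therefore set out as well, a ratio chosen after its values were seen. Wild-type male tumours held 7.20, 2.77 and 3.85 Jun counts per Fos count in replicates 1, 2 and 3, against 1.64, 2.20 and 1.15 in normal colon. Wild-type female tumours held 4.34, 3.77 and 5.66, against 0.742, 2.06 and 0.732. In both sexes the wild-type tumours lay above the normal libraries without overlap. Knock-in male tumours held 1.97, 2.14 and 1.87 Jun counts per Fos count, inside the span of knock-in male normal colon (2.29, 0.840 and 3.71) and below all 6 wild-type tumours. The ratio in tumours over that in normal colon was 2.65 in wild-type males, 4.36 in wild-type females and 1.04 in knock-in males, as geometric means. No p is given for the ratio, since it was chosen for these values.

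**Figure D4:**
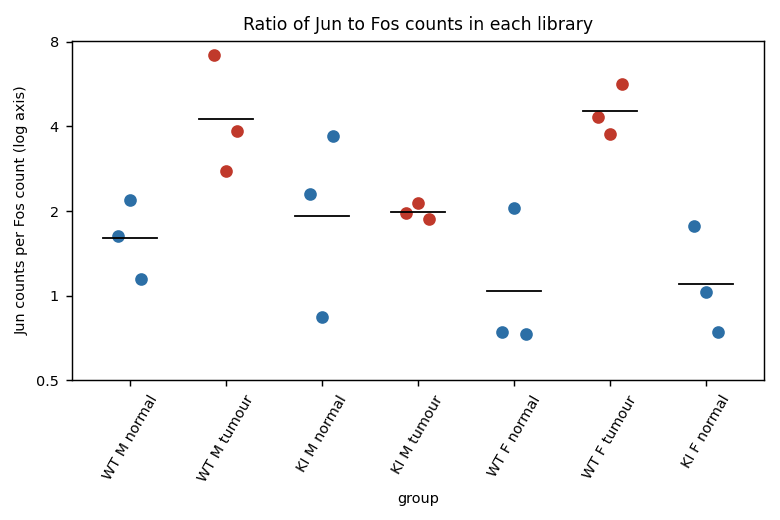
Jun counts per Fos count in each library, on a log axis with base 2, with 3 points and a bar at the geometric mean for each group (WT wild-type, KI knock-in, M male, F female, blue normal colon, red tumour). The 6 wild-type tumour libraries lie between 2.77 and 7.20, above the 3 knock-in tumours at 1.87 to 2.14.

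In normal colon no gene of the 10 passed between the genotypes. In males 0 of 10 passed beside 0.0126% of all tested genes, 0 had an unadjusted p under 0.05 in edgeR, and DESeq2 called 0. Fosb was lower in all 3 knock-in males, at up to 10.95 CPM against 12.4 to 18.4 CPM, and Dusp1 higher, at 37.4 to 53.1 against 31.1 to 35.4 CPM, so that 2 of 10 were without overlap beside 7.08% of all genes. In females 0 of 10 passed beside 16% of all tested genes, and with edgeR 1 gene, Nr4a1, had an unadjusted p under 0.05, while DESeq2 called 0. Nr4a1 was at 18.3, 24.4 and 14.01 CPM in knock-in female normal replicates 1, a and b (2 columns of this group carry the same name and are called a and b here), all above the wild-type females at 9.05 CPM or lower. Its log2 fold change was 1.27 (SE 0.57, adjusted p 0.139 by edgeR), with an edgeR adjusted p of 0.0121 where the compared groups alone were fitted. It was the single gene of the 10 without overlap there, beside 37.8% of all genes. Fos was at 52.4, 156 and 155 CPM in the knock-in females and overlapped the wild-type females, with a log2 fold change of -0.48 and a 95% interval from -1.35 to 0.38.

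Nr4a1 had the largest fitted difference of the 10 genes between the sexes in wild-type normal colon. Wild-type female normal libraries held 5.30 to 9.05 CPM, below wild-type male normal colon at 12.5 to 32.3 CPM and below each of the other 18 libraries, of which the lowest was at 12.5 CPM. The log2 fold change of females against males was -1.49 (SE 0.57, adjusted p 0.0829 by edgeR), and it passed with DESeq2 (adjusted p 0.0190) and with the compared groups alone in edgeR (adjusted p 0.0430). The same 3 libraries were lowest in the summed endothelial markers, at 67.6 to 97.1 CPM against 141 CPM or more in the others, and in the 6 fibroblast markers, at 1126 to 1369 CPM against 1758 CPM or more. None of these endothelial and fibroblast markers was at 0 in any library. Whether these cell types had a part in the Nr4a1 level was not tested.

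Across the sexes with edgeR 0 of 10 genes passed in wild-type tumours, 0 in wild-type normal colon and 0 in knock-in normal colon, beside 0.86%, 15.9% and 0.584% of all tested genes. Unadjusted p-values under 0.05 were found for 2, 1 and 1 of them, and DESeq2 called 0, 1 and 0. In wild-type tumours Ier2 was at 35.3 to 38.8 CPM in females and at 45.5 to 73.6 CPM in males, as the single gene without overlap, beside 31.2% of all genes (log2 fold change -0.62, SE 0.22, edgeR adjusted p 0.127). Junb overlapped in these tumours, at 99.5 to 140 CPM in females and 136 to 265 CPM in males (log2 fold change -0.68, SE 0.27, edgeR adjusted p 0.167). Without overlap in normal colon of wild-type mice were 3 genes, beside 34.2% of all genes: Nr4a1 and Ier2 were lower and Dusp1 higher in females. In knock-in normal colon 0 were, beside 19.7%. The remaining 2 interactions, of sex with tumour in wild-type mice and of sex with genotype in normal colon, gave 0 calls in edgeR and in DESeq2 beside 1.12% and 2.54% of all genes, with 1 and 0 unadjusted p under 0.05 in edgeR.

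Dusp1 and Atf3 had the smallest shares of their variation between the groups. The lowest group mean of Dusp1 was that of wild-type male normal colon, 33.6 ± 2.24 CPM (SD, n = 3), and the highest that of knock-in male normal colon, 47.0 ± 8.37 CPM (SD, n = 3). Single libraries reached 70.4 CPM in wild-type male tumour replicate 2, 69.1 CPM in knock-in female normal replicate a and 65.5 CPM in wild-type female normal replicate 1. Atf3, a factor induced by stress, had its lowest mean in knock-in male normal colon, 20.7 ± 5.66 CPM (SD, n = 3), and its highest in wild-type male tumours, 34.0 ± 14.4 CPM (SD, n = 3). Fosb ranged 18.8-fold over the 21 libraries on the log2 CPM scale, from wild-type female normal replicate 2 at 1.53 CPM to wild-type male tumour replicate 3 at 31.8 CPM, with replicate 1 of the former group at 24.5 CPM.

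Other genes of the early response were counted from lists. Of 38 further early response genes 37 were tested. In wild-type males 11 rose, 5 fell and 21 did not pass in tumours, in wild-type females 13 rose, 9 fell and 15 did not pass, and in knock-in males 3 rose, 2 fell and 32 did not pass. Of all tested genes 35.7%, 49.1% and 20.4% were called in these comparisons. The median log2 fold changes of the list were 0.28, 0.27 and -0.11, and that of all tested genes was 0.01 in each. Ptgs2, which encodes the inducible cyclooxygenase, rose by 2.40 (SE 0.52) in wild-type males, 3.67 (SE 0.56) in wild-type females and 2.63 (SE 0.53) in knock-in males on the log2 scale, with edgeR adjusted p of 0.00223, 6.03e-05 and 0.00501. Ier3, an early gene tied to cell survival, rose by 2.40, 4.05 and 1.43 in the same order (edgeR adjusted p 0.00168, 2.57e-05 and 0.0495). The call of Ier3 in knock-in males was kept in 2 of the 21 fits that left out a library, with the edgeR adjusted p reaching 0.167 without knock-in male normal replicate 2. Ier5l, a relative of Ier2, rose by 2.14 (SE 0.35) in wild-type males and 3.94 (SE 0.41) in wild-type females on the log2 scale, with edgeR adjusted p of 0.000170 and 9.05e-07. Between knock-in and wild-type male tumours 1 of the 37 rose and 6 fell, beside 9.3% and 5.23% of all tested genes. Among those that fell, Ier5l had a log2 difference of -1.30 (SE 0.34, adjusted p 0.0206 by edgeR), Gadd45b, an NF-kappaB and stress target, one of -1.08 (SE 0.26, adjusted p 0.0139 by edgeR) and Nfkbia, which encodes the inhibitor of NF-kappaB, one of -0.97 (SE 0.28, adjusted p 0.0308 by edgeR). Without wild-type tumour replicate 2, or without knock-in tumour replicate 1 or 2, neither Ier5l (edgeR adjusted p 0.0576, 0.0581 and 0.0614) nor Nfkbia (0.146, 0.0842 and 0.107) passed, and Ier5l did not without wild-type tumour replicate 1 (0.0516). Without wild-type tumour replicate 2 the log2 difference of Nfkbia was -0.57.

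The phosphatase genes related to Dusp1 numbered 10, all tested. In wild-type males 5 rose and 5 did not pass, in wild-type females 6 rose and 4 did not pass, and in knock-in males 0 passed in either direction in edgeR, beside the same 35.7%, 49.1% and 20.4% of all tested genes, with medians of 0.69, 1.25 and 0.29. Of all tested genes, 16.5%, 25% and 10.4% were called higher in these comparisons. Dusp4, an inducible phosphatase of nuclear MAP kinases, rose by 2.11 (SE 0.41, adjusted p 0.000939 by edgeR) in wild-type males and by 3.27 (SE 0.44, adjusted p 1.63e-05 by edgeR) in wild-type females on the log2 scale. Dusp1 itself had log2 fold changes of 0.38 and -0.28 there and did not pass. Among 13 dimer partners of AP-1 subunits, 3 rose and 1 fell in wild-type males, 3 rose and 3 fell in wild-type females, and 1 rose and 3 fell in knock-in males, again beside 35.7%, 49.1% and 20.4% of all tested genes. Mafg, a small Maf factor, rose by 1.39 and 1.65 on the log2 scale in wild-type males and females (edgeR adjusted p 0.00214 and 0.000336). Jund, the AP-1 subunit related to Jun and Junb, fell in wild-type females by 0.69 (SE 0.18, adjusted p 0.0042 by edgeR), a value outside the rule for naming and given after it was seen, and in knock-in males by 0.64 (SE 0.18, adjusted p 0.0208 by edgeR) on the log2 scale. Batf2, a factor of the BATF family, fell by 1.12, 1.66 and 0.85 in wild-type males, wild-type females and knock-in males (edgeR adjusted p 0.00297, 4.14e-05 and 0.0238). In knock-in males Jund did not pass without normal replicate 1 or 3 or tumour replicate 1 or 2, nor Batf2 without normal replicate 2 or 3 or tumour replicate 1, where the edgeR adjusted p rose to at most 0.0988.

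Of 20 upstream kinases and transcription factors, 3 rose and 3 fell in wild-type males, 4 rose and 5 fell in wild-type females, and 4 rose and 4 fell in knock-in males, beside 35.7%, 49.1% and 20.4% of all tested genes. Elk3, a ternary complex partner of SRF, rose by 1.32, 2.83 and 0.95 on the log2 scale in that order (edgeR adjusted p 0.000592, 4.03e-07 and 0.0133). Myocd, the SRF coactivator of smooth muscle, had log2 fold changes of -2.37, -1.49 and -1.36 (edgeR adjusted p 1.05e-05, 0.000241 and 0.00279), beside the smooth muscle marker sums given above. Creb1, the factor that binds cAMP response elements, rose by 0.55 (SE 0.15, adjusted p 0.0180 by edgeR) in knock-in males. It did not pass there without normal replicate 1 or 3 or tumour replicate 1 or 2, nor Elk3 without normal replicate 2 or tumour replicate 2 (edgeR adjusted p 0.0578 to 0.0953). Of the 10 heat shock and handling genes 2 rose in wild-type females, beside 25% of all tested genes, and in edgeR none passed between tumour and normal colon in wild-type or knock-in males, beside 35.7% and 20.4%.

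The genes whose pattern over the 21 libraries was nearest to the mean profile of the 10 were sought among 11556 genes with a mean of at least 5 CPM, by the root mean square difference of centred log2 CPM. These were Rab43, Cyth2, Pofut2, Cyp27a1 and Lsr, at 0.254 to 0.269. The mean profile itself has a root mean square of 0.377, so a gene that did not vary at all would lie at that distance. The distance of each of the 10 genes from the mean profile of the other 9 ran from 0.389 for Ier2 and 0.401 for Dusp1 to 0.695 for Nr4a1 and 0.941 for Fosb. The profile of the other 9 changes with the gene left out, so these distances cannot be set against 0.377.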

How the data were processed

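Total RNA of mouse colon was depleted of ribosomal RNA with RNase H and reverse transcribed with random hexamers, per the labels' protocols. The authors deposited raw counts per gene symbol. The submitters' processing notes name Trimmomatic, HISAT2, featureCounts and DESeq2 and the build mm10. Annotation and strand setting are not given in the sources used here. All 21 columns were used, and the authors' deposited DESeq2 table was not used here. The members and lists were chosen with earlier results of these data known.

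Genes were tested with edgeR (quasi-likelihood F test, two-sided) on all 21 libraries with TMM scaling, filterByExpr, 1 coefficient per group and Benjamini-Hochberg adjustment, with a threshold of 0.05 in 9 comparisons of groups and 3 interactions. It was tested on simulated data. Log2 CPM used a prior count of 2. From each list the up to 3 called genes with the largest absolute changes in a comparison were open to naming, with a mean of at least 50 counts in a group. Same-numbered wild-type male libraries deviated together (correlations across genes of 0.169, 0.174 and 0.215 for tumour and normal colon). In no other comparison did all 3 such correlations exceed 0.1. Single correlations elsewhere were larger in size, at 0.461 for number 1 between the genotypes in male normal colon. For number 1 between tumour and normal colon of knock-in males the value was -0.300. The labels state no pairing, and whether libraries were paired was not tested. The test with 1 coefficient per group used no pairing. Replicate number entered only in an alternative setting, the replicate block, which was not limited to wild-type males. R 4.3.3, edgeR 4.0.16, limma 3.58.1 and DESeq2 1.42.0 were used.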

Additional observations from a re-analysis of the deposited data

How the results depend on the processing

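Tried were scaling by DESeq2 size factors or by library totals, all genes kept or a minimum mean count of 50, the DESeq2 test, the compared groups alone, the replicate block, a term for late-numbered libraries, and leaving out each library. Of 55 gene differences recomputed under them, 49 kept their direction in all, and 6 that had not passed changed it. In tumours of knock-in males the log2 value of Jun was -0.0113 with the term for late numbers and ran from -0.25 (without normal replicate 2) to 0.38 without 1 library, that of Fos from -0.0692 (without tumour replicate 3) to 0.31 and that of Junb from -0.52 to 0.13 (without normal replicate 3). Dusp1 ran from -0.0622 (without tumour replicate 2) to 0.64 in wild-type males and from -0.43 to 0.0741 (without normal replicate 1) in wild-type females, where Fosb ran from -0.86 to 1.47 (without normal replicate 1). With the compared groups alone Ier3, Jund, Batf2 and Creb1 in knock-in males and Nfkbia between male tumours did not pass. The number of the 10 genes called in wild-type males, 1 here, was 2 with library totals, with DESeq2 and with the compared groups alone, and 0 to 2 without 1 library. In wild-type females it was 4 here, 1 with the term for late numbers and 1 to 4 without 1 library. For knock-in against wild-type male tumours it was 1 here, 2 with DESeq2 and with the compared groups alone, and 0 to 2 without 1 library. It went from 0 to 1 with DESeq2 for the sexes in wild-type normal colon and for the interaction of genotype and tumour, and from 0 to 1 with the compared groups alone for the sexes in wild-type normal colon and the genotypes in female normal colon. Without knock-in male normal replicate 2 it was 1 in place of 0 for tumours of knock-in males, for the sexes in knock-in normal colon and for the interaction of genotype and tumour. Jun in wild-type male tumours also passed without wild-type male normal replicate 2, knock-in male normal replicate 2 or 3, or wild-type female normal replicate 3. The cause was not tested.

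With the replicate block, fitted on the 18 numbered libraries, Junb had edgeR adjusted p of 0.0330 in wild-type male tumours and 0.0334 between male tumours of the genotypes, and Nr4a1 lost its call in wild-type females (0.0892). Ier3 lost its call in knock-in males (0.0823). The block changed no other of the recomputed calls. Library totals moved the median log2 fold change of all genes in wild-type females from 0.01 to 0.15 and the share of higher calls from 51.0% to 62.1%. Under the alternatives with all libraries, the numbers of all genes called moved by over 1.5 times for knock-in males (3246 here, 724 to 3807), male tumours of the genotypes (2315, 1438 to 2992), male normal colon (2, 0 to 6), the sexes in wild-type tumours (137, 121 to 1166), wild-type normal colon (2534, 1623 to 3203) and knock-in normal colon (93, 17 to 582), and the interactions of genotype with tumour (240, 0 to 1331), sex with tumour (179, 23 to 580) and sex with genotype (405, 254 to 926). Leaving out 1 library moved them further, to as few as 429 between male tumours of the genotypes (knock-in replicate 2), 1022 between female normal colon of the genotypes (2545 here, knock-in replicate a), 3659 in wild-type males (5697 here, normal replicate 3), 1392 in knock-in males (normal replicate 3) and 1037 between the sexes in wild-type normal colon (female replicate 2), and to 0 to 2104 for the interaction of genotype with tumour, so the shares of all genes printed beside the counts move with them. Egr2, at 4 to 28 counts, is limited by depth, and it did not enter the fit with a mean of at least 50 counts.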
